A study of Homo sapiens with 8 samples.

Results

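Among 19818 deeply read HMLE cells, 774 cells (3.91%, exact binomial 95% interval 3.64 to 4.18%) held transcripts of a set of 9 genes that most other cells lacked. The 9 genes are RASD1, ARC and 7 transcripts named only after the genomic clone they were mapped to, AC239799.2, Z93241.1, AC253572.2, AC007952.4, AL021155.5, AP000692.2 and AC245014.3. A cell was gated when at least 5 of the 9 had at least 1 unique molecular identifier (UMI, a tag that marks 1 captured molecule). Cells with at most 1 of the 9 served for comparison and numbered 17117, and the 1927 cells with 2 to 4 were set aside. All cells had at least 1000 genes, at most 15% of UMIs from mitochondrial genes and at least 10000 gene UMIs. The 9 genes had been picked from a cluster of these same cells, so their levels describe the gate and support nothing.

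HMLE is an immortalised line of human mammary epithelial cells that turns mesenchymal under the growth factor TGF-β, and the series asks what intermediate states it passes through and what part G-quadruplex DNA plays, probed with the ligand pyridostatin. Transcripts were counted with a 10x Genomics 5' kit in 4 mRNA libraries, and each sample of cells carried 1 of 12 short barcoded oligonucleotides (SBO01 to SBO12). The labels number the libraries 1 to 4 and name no pools. By their barcode counts the libraries form 2 pools of 2 libraries, and the libraries of a pool are taken as its loads here. Libraries 1 and 2 carried the first 6 barcodes, up to SBO06, and libraries 3 and 4 the other 6, from SBO07 on. The labels do not say which barcode marks which treatment, time or culture, so gated and comparison cells are classes of cells within the same libraries, and treatments are not compared here. Spread between cultures was not measured, and the p-values below measure the spread between loads together with differences between the pools.

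RASD1 encodes a small GTPase of the Ras family that is induced by glucocorticoids, and ARC encodes a cytoskeleton-associated protein best known as an immediate early gene of neurons. Immediate early genes are switched on within minutes of a stimulus without new protein synthesis, and their transcripts are mostly short and quickly degraded. Small nuclear RNAs form the core of the spliceosome and small nucleolar RNAs (snoRNAs) guide the processing of ribosomal RNA, and many snoRNAs are cut out of introns of host genes.

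Of the 7 clone-named gate transcripts, 5 are annotated in GENCODE 29, and 4 of those 5 begin within 100 bases of the start of a small nuclear RNA or snoRNA gene on the same strand. Over all 10587 clone-named features of the files found in that annotation, 9 begin in this way, the 4 included. That count of 9 also takes in starts at ribozyme genes and at genes annotated as miscellaneous RNA. Z93241.1 begins at RNU12, the U12 RNA of the minor spliceosome, AC007952.4 at SNORD3D, a copy of the U3 snoRNA, AL021155.5 at RNU5E-1, a U5 gene, and AC245014.3 at RNVU1-14, a variant U1 gene. The fifth, AP000692.2, lies antisense within MORC3, and AC239799.2 and AC253572.2 have no entry in that annotation. The first 300 bases of 3 of these transcripts are shown because the small RNA and the sequence that runs on past its 3' end can be read in 1 stretch. They come from the GENCODE 29 transcripts on GRCh38, at chr22:42615244-42615543 (plus strand), chr17:19112337-19112636 (minus strand) and chr1:145281116-145281415 (plus strand), with the bases of the small RNA in capitals.

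Z93241.1: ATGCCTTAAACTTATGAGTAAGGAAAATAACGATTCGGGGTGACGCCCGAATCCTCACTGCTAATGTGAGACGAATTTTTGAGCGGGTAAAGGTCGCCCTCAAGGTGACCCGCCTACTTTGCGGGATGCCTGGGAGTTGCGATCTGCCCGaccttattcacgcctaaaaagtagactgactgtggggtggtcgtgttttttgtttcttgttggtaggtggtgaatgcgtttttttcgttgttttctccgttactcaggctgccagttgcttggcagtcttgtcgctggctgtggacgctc
AC007952.4: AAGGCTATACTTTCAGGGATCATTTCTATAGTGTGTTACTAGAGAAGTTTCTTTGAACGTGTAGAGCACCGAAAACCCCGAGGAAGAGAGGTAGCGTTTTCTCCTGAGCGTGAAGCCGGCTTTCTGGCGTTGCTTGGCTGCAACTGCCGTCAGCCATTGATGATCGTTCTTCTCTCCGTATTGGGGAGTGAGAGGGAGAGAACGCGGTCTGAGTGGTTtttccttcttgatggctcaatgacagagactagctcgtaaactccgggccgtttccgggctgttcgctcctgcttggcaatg
AC245014.3: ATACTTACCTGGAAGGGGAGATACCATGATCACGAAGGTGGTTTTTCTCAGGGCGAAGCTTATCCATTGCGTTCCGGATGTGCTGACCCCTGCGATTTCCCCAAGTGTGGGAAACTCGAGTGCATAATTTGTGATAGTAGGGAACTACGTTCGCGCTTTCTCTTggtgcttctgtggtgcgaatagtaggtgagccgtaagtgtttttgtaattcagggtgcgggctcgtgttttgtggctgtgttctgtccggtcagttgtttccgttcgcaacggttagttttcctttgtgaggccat

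The capitals cover 150 bases in Z93241.1, 218 in AC007952.4 and 164 in AC245014.3, and the annotated transcripts are 664, 637 and 347 bases long. Reads of U1 variants and of U3 copies may be shared with near-identical genes elsewhere, so the counts of AC245014.3 and AC007952.4 are uncertain in that respect.

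The gate genes were detected together. Cells with 0 to 9 of the 9 genes numbered 12245, 4872, 1259, 405, 263, 204, 170, 179, 158 and 63, a steep fall up to 4 genes and a slow one from 4 to 8. Just outside the threshold, cells with 4 genes held a mean of 8.49 gate UMIs, just inside it those with 5 held 14.1, and cells with all 9 held 71.0. AC007952.4, the most abundant, had 198, 226, 251 and 282 CPM (UMIs of a gene per 1000000 UMIs of the summed cells) in the gated cells of libraries 1 to 4, against 3.68, 3.58, 3.36 and 2.96 CPM in the comparison cells. RASD1 had 65.6, 73.6, 129 and 134 CPM in the gated cells, against 0.705, 0.604, 0.583 and 0.419 CPM in the comparison cells. ARC had 48.7, 59.6, 62.9 and 56.0 CPM in the gated cells, against 0.517, 0.647, 0.545 and 0.190 CPM in the comparison cells. In 6 of the 9 gate genes, RASD1, AC239799.2, AP000692.2, Z93241.1, AL021155.5 and AC007952.4, both gated sums of libraries 3 and 4 lay above both of libraries 1 and 2, while AC253572.2 and AC245014.3 varied little, at 103 to 108 and 61.3 to 68.1 CPM. The single genes were found in 33.7% (AP000692.2, library 1) to 97.5% (AC007952.4, library 4) of gated cells. No cell type in the line is known to lack these genes, so free RNA cannot be told apart from low expression in the cells. Detection in the cells of SBO11 is given as a description. They are in libraries 3 and 4 only, and 0.408% of them were gated. At a median of 35286 UMIs, 1.84% (AC245014.3) to 12.7% (AP000692.2) of the SBO11 cells held a UMI of a given gate gene. Free RNA itself was not measured in any library.

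**Figure D1:**
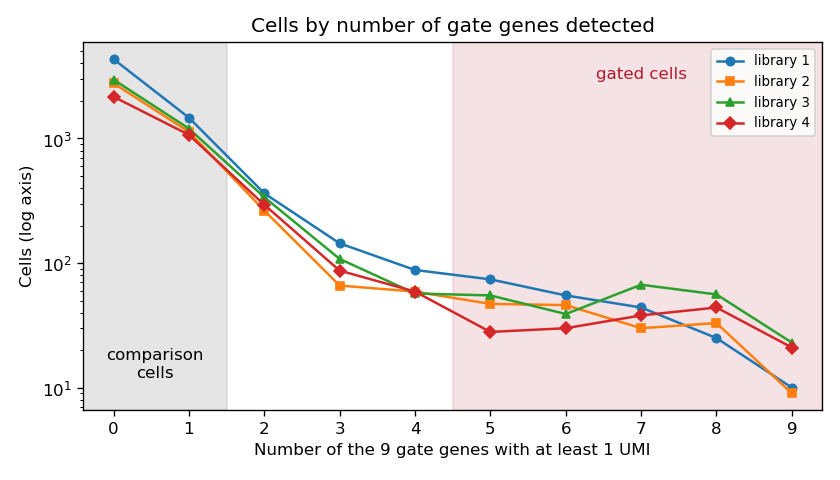
Number of cells (log axis) with 0 to 9 of the gate genes detected, 1 line per library; the shaded ranges mark the comparison cells (0 or 1 gene) and the gated cells (5 to 9 genes). The counts drop steeply up to 4 genes and then level out, with 63 cells over all libraries at 9 genes.

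The share of gated cells was 3.15% in library 1 (208 of 6609 cells), 3.70% in library 2 (165 of 4461), 4.89% in library 3 (240 of 4913) and 4.20% in library 4 (161 of 3835). When each cell was first thinned to 10000 UMIs, 387 cells (1.95%) passed the gate, and the shares were 1.42, 1.66, 2.67 and 2.29%. By barcode population, among cells with a single barcode, the share was 16.1% in SBO10 (75 of 466, interval 12.9 to 19.8%), 14.8% in SBO08 (120 of 810), 9.97% in SBO05 (172 of 1726) and 7.99% in SBO09 (53 of 663). It was 4.41% in SBO03, 2.97% in SBO04, 2.81% in SBO07, 1.04% in SBO06 and 1.01% in SBO12. The lowest shares were 0.426% in SBO02, 0.408% in SBO11 and 0.185% in SBO01 (3 of 1622 cells). The loads of 1 pool gave close shares in the 4 richest populations, 9.31 and 10.9% for SBO05, 16.1 and 13.2% for SBO08, 8.18 and 7.75% for SBO09, and 16.0 and 16.3% for SBO10. Thinning left the order of these 4 as it was, at 9.87, 9.51, 4.58 and 3.62% for SBO10, SBO08, SBO05 and SBO09. The intervals cover counting error only, and the shares were not tested because the rule sets them. A single barcode was called in 66.3% of gated cells and 50.5% of comparison cells. Relatively more comparison cells thus drop out of the shares by population, which tends to raise them.

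The rule limits depth and mitochondrial share in both classes, so the values of either only describe the gated cells that passed it. Their median UMI count was 22672, 26977, 30277 and 38614 in libraries 1 to 4, against 23749, 28336, 30550 and 38673 in the comparison cells, slightly lower in each library. At 10000 UMIs per cell, the median number of genes was 3273, 3327, 3149 and 3155 in the gated cells, against 3383, 3453, 3344 and 3323 in the comparison cells, lower in the gated cells of each library. The mitochondrial share was alike, at medians of 1.41 to 1.57% in the gated cells and 1.46 to 1.75% in the comparison cells. A sign-flip test over 4 libraries cannot go below p = 0.125 (exact, two-sided), so these differences are given as values.

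The gated cells held far more barcode oligonucleotide. Their median count of barcode UMIs was 2655, 3245, 2478 and 2586 in libraries 1 to 4, against 665, 620, 233 and 271 in the comparison cells. The gap was present within a barcode too: in SBO05 the median was 1927 and 3007 in the gated cells of libraries 1 and 2, against 1002 and 978 in the comparison cells, and in SBO10 it was 3407 and 2957 in the gated cells of libraries 3 and 4, against 633 and 760 in the comparison cells. No barcode was called in 4 of the 774 gated cells (0.517%), against 24.5% of comparison cells. Several barcodes were called in 33.2% of gated cells, against 24.9% of comparison cells, and such cells may be doublets. They stay in the values below, and whether barcode load has a part in any of them was not tested. Droplet barcodes shared by libraries numbered 899, among them those of 31 gated cells, and 1 was gated in more than 1 library.

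For genes outside the gate, UMIs were summed over the gated and over the comparison cells of each library and compared by the quasi-likelihood test of edgeR, with a block for each library. The gated sums held 4813030 to 7690392 UMIs and the comparison sums 115890881 to 148875258. Of 16733 genes tested, 2130 (12.7%) were higher and 2341 (14.0%) lower in the gated cells at a Benjamini-Hochberg adjusted p under 0.05. Changes of at least 1 on the log2 scale numbered 625 rises (3.74%) and 214 falls (1.28%). The split depended on the scaling: with library totals in place of TMM factors, 1415 genes were higher and 3689 lower, so that 27.7% of the calls were rises, against 47.6% with TMM, and the median log2 fold change over all genes was -0.13, against -0.04. Without library 2 the calls numbered 1355 higher and 1346 lower, and without library 4 they numbered 1439 higher and 1555 lower.

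Because the 4 richest barcode populations dominate the gated cells, the comparison was repeated within them, as pairs of gated and comparison cells of SBO05 in libraries 1 and 2 and of SBO08, SBO09 and SBO10 in libraries 3 and 4. It called 1877 of 11227 genes higher (16.7%) and 1788 lower (15.9%). The gate genes had been picked among cells with a single barcode, so the fit was also run on the remaining cells, 261 gated and 8465 comparison cells. Of these gated cells 257 had several barcodes and 4 had none, while of the comparison cells 4268 had several and 4197 had none. The 2 classes thus differ in barcode call in this fit. It called 1265 of 15139 genes higher (8.36%) and 1125 lower (7.43%). Both sets of cells are also part of the sums over all cells, so their values are not independent of those. The members of the gene lists that follow are counted over all cells unless stated, and each count is to be read against the 12.7% of all genes higher and 14.0% lower.

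ID2 and GADD45B had the largest rises outside the gate, for a mean level of 20 CPM or more. GADD45B, a stress-inducible gene of growth arrest and MAP kinase signalling, had 947, 1041, 633 and 614 CPM in the gated cells of libraries 1 to 4, against 59.0, 60.5, 44.0 and 40.7 CPM in the comparison cells. ID2, a helix-loop-helix protein that blocks other transcription factors from DNA, had 34.0, 46.1, 55.9 and 50.0 CPM in the gated cells, against 1.95, 1.89, 1.62 and 1.51 CPM in the comparison cells. Every gated sum of both genes lay above every comparison sum. The log2 fold change was 4.06 ± 0.05 (SE derived from the edgeR test, n = 4 libraries) for GADD45B and 4.82 ± 0.17 for ID2, with edgeR adjusted p of 1.3e-09 and 5.0e-07. Within barcode populations it was 3.91 and 4.59, and in the cells without a single barcode 3.90 and 4.63. By population, the level of GADD45B was 1232, 706, 621 and 761 CPM in the gated cells of SBO05, SBO08, SBO09 and SBO10, against 101, 47.9, 47.6 and 46.8 CPM in the comparison cells.

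SOCS1, which dampens cytokine signalling, had 63.6, 72.1, 65.1 and 70.4 CPM in the gated cells, against 11.7, 10.3, 9.71 and 9.74 CPM in the comparison cells. NFKBIZ, a nuclear regulator of NF-κB, had 52.7, 59.6, 57.1 and 41.9 CPM in the gated cells, against 10.8, 11.1, 7.32 and 7.15 CPM in the comparison cells. The gated and comparison sums overlapped for neither gene. CSKMT, a methyltransferase of citrate synthase, rose to 69.4 to 76.7 CPM in the gated cells, against 8.18 to 9.25 CPM in the comparison cells. Log2 fold changes were 2.81 ± 0.09 for SOCS1, 2.65 ± 0.12 for NFKBIZ and 3.14 ± 0.08 for CSKMT, with edgeR adjusted p of at most 1.9e-06.

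**Figure D2:**
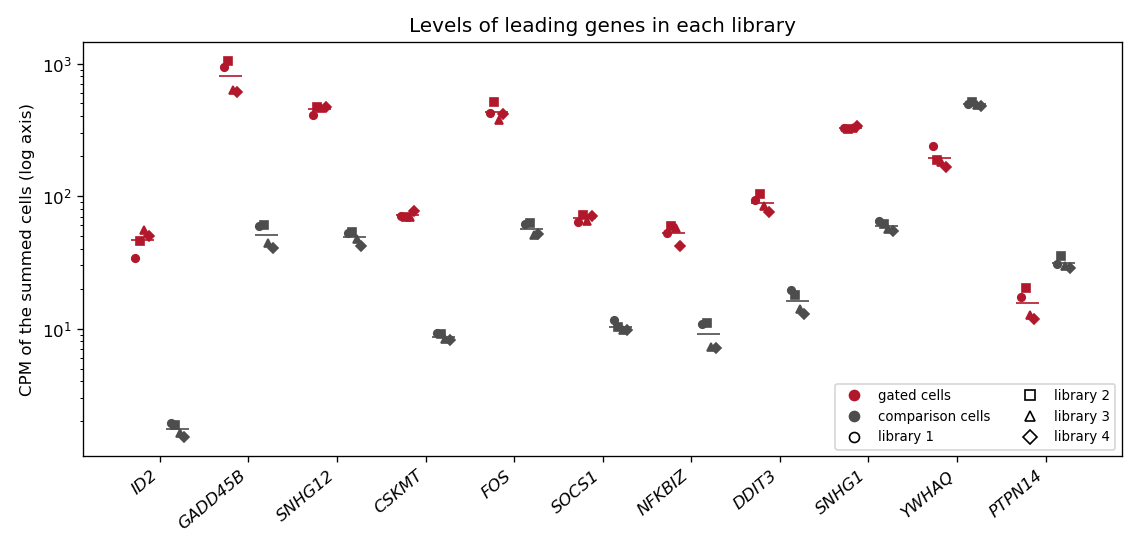
CPM (log axis) of 9 of the 10 largest rises and of 2 of the largest falls, YWHAQ and PTPN14, outside the gate, in each of the 4 libraries (symbols) for gated cells (left of each gene) and comparison cells (right); lines are means. The 2 classes do not overlap for any of the 11 genes.

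Single cells showed how widely the rises were shared. At 10000 UMIs per cell, GADD45B had at least 1 UMI in 98.6, 99.4, 92.9 and 96.3% of the gated cells of libraries 1 to 4, against 37.3, 37.0, 30.4 and 27.7% of the comparison cells. FOS had one in 84.6 to 92.1% of gated cells, against 26.8 to 29.8% of comparison cells. ID2 had one in 29.3 to 35.0% of gated cells, against 1.36 to 1.82% of comparison cells, so at this depth most gated cells had no UMI of ID2. The median gated cell held 9, 8, 6 and 5 UMIs of GADD45B, with quartiles from 3 to 15, and the median comparison cell held 0.

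Levels of these genes also grew with the number of gate genes a cell held, given here as unweighted means of the CPM of the 4 libraries. GADD45B had 47.5 CPM in cells with none of the gate genes, 109 CPM with 2, 395 CPM with 4, 550 CPM with 5 and 1214 CPM with all 9. ID2 had 1.52, 4.20, 16.1, 22.4 and 88.6 CPM at the same numbers. YWHAQ, a 14-3-3 protein, ran the other way, at 499, 442, 268, 230 and 133 CPM. Cells with 2 to 4 gate genes, which are in neither class, lay between the classes for these 3 genes, and no step marked the threshold of 5.

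Of 38 immediate early genes, all tested, 31 rose and 1 fell, with a median log2 fold change of 1.35, against -0.04 over all genes tested. FOS, a subunit of the AP-1 transcription factor, had 425, 513, 377 and 417 CPM in the gated cells, against 61.1, 62.3, 50.9 and 51.8 CPM in the comparison cells, a log2 fold change of 3.03 ± 0.06 (edgeR adjusted p = 2.5e-08). KLF2, a zinc finger factor, had 8.54, 11.8, 11.3 and 16.2 CPM in the gated cells, against 1.71, 1.72, 1.41 and 1.17 CPM in the comparison cells (log2 fold change 3.09 ± 0.24, edgeR adjusted p = 5.1e-05). The classes overlapped for neither. Members outside the rule for named genes are given here and in the lists that follow after their values were seen. JUN, the partner of FOS, had 871 to 1109 CPM in the gated cells, against 189 to 238 CPM in the comparison cells, and EGR1, an early growth response factor, had 237 to 489 CPM, against 75.6 to 91.3 CPM. ATF3, FOSB, DUSP1, SOCS3, IER2 and BTG2 also rose, by 1.65 to 2.55 on the log2 scale. KLF6 was the 1 member that fell, by 0.49. MYC had a log2 fold change of -0.25 (edgeR adjusted p = 0.13) and SRF, the factor that drives many of these genes, one of -0.24, and neither passed the test. Within barcode populations 29 of 32 rose and 1 fell, with a median of 1.69.

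RASD1 is named for its response to the glucocorticoid dexamethasone, and 9 of 13 listed targets of the glucocorticoid receptor rose while none fell (median log2 fold change 0.57). ANGPTL4, an inhibitor of lipoprotein lipase, had 16.4, 16.4, 14.0 and 17.1 CPM in the gated cells, against 2.43, 2.09, 2.26 and 2.36 CPM in the comparison cells. DUSP1, a MAP kinase phosphatase that is also on the immediate early list, had 180, 207, 197 and 225 CPM in the gated cells, against 59.2, 55.7, 41.6 and 45.5 CPM in the comparison cells. Both differences exceeded the spread between libraries, with log2 fold changes of 2.90 ± 0.12 and 2.11 ± 0.12 and edgeR adjusted p of 9.4e-07 and 8.3e-06. FKBP5 and TSC22D3, steroid-responsive genes, rose by 0.35 and 0.80, with log2 fold changes of 0.12 and 0.70 within barcode populations. Of 11 cAMP and CREB targets tested, 7 rose and 1 fell. RGS2, which speeds the turn-off of G proteins, had 21.8, 24.1, 31.7 and 30.4 CPM in the gated cells, against 3.55, 3.70, 4.17 and 3.57 CPM in the comparison cells (log2 fold change 2.94 ± 0.12, edgeR adjusted p = 7.4e-07), and PDE4D, a cAMP phosphodiesterase, fell by 0.76. Among small GTPases near RASD1, 4 of 16 rose (25%, against 12.7% of all genes) and 3 fell (18.8%, against 14.0%), and within populations 3 of 11 rose and 1 fell, with a median of -0.02: RASL11A rose by 2.62 ± 0.17 and the low-count RASL11B by 3.25 ± 0.24, while HRAS and RAP2B fell by 0.32 and 0.46.

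In the integrated stress response, stalled translation lets the transcription factor ATF4 raise stress genes. Of 28 listed members, 11 rose and 2 fell, with a median log2 fold change of 0.17. DDIT3, the factor CHOP, had 93.2, 104, 83.9 and 75.7 CPM in the gated cells, against 19.5, 18.1, 14.1 and 12.9 CPM in the comparison cells (log2 fold change 2.57 ± 0.08, edgeR adjusted p = 2.4e-07). ATF3 had 113, 126, 104 and 141 CPM in the gated cells, against 24.3, 24.1, 18.9 and 21.1 CPM in the comparison cells. ATF4 rose by 0.72, and the amino acid genes AARS and SLC7A11 fell by 0.22 and 0.60, while CHAC1, TRIB3 and PSAT1 had log2 fold changes of 0.39, -0.15 and 0.18 that did not pass. Of 12 genes of the unfolded protein response, XBP1 alone passed, with a rise of 0.35. HSPA5, its main chaperone, had 619 to 706 CPM in the gated cells and 658 to 737 CPM in the comparison cells. Of 14 heat shock genes 3 rose, led by DNAJB1 at 0.70, and 2 fell (14.3%, near that of all genes), HSPA1A by 0.54 and HSPA1B by 0.32, which are near-identical genes. Of 25 p53 targets 6 rose (24.0%, against 12.7% of all genes) and 3 fell (12.0%, near the 14.0% of all genes), with a median log2 fold change of -0.0019: BTG2 and SESN2 rose by 1.65 and 1.07, CDKN1A, the cell cycle inhibitor p21, by 0.25, and MDM2 and SESN1 fell by 0.49 and 0.90.

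Of 14 NF-κB targets and cytokines, 6 rose and 1 fell, with a median log2 fold change of 0.27. Within barcode populations 9 of 12 rose and none fell, with a median of 0.85. NFKBIA, the inhibitor of NF-κB, had 172, 219, 252 and 263 CPM in the gated cells, against 118, 115, 95.4 and 90.1 CPM in the comparison cells. CXCL2, a chemokine, had 14.0, 38.4, 33.2 and 31.2 CPM in the gated cells, against 11.5, 11.3, 8.21 and 6.31 CPM in the comparison cells. TNF rose by 2.25 ± 0.30 over all cells, and in cells without a single barcode TNF and CXCL2 had log2 fold changes of 0.61 and 0.18 that did not pass. BIRC3, an inhibitor of apoptosis, fell by 0.86.

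Of 27 listed transcripts that host snoRNAs in their introns, 21 rose and none fell, with a median log2 fold change of 1.06. SNHG12 had 411, 467, 466 and 472 CPM in the gated cells, against 52.7, 53.2, 47.5 and 42.2 CPM in the comparison cells (log2 fold change 3.31 ± 0.09, edgeR adjusted p = 1.3e-07). SNHG1 had 324, 321, 329 and 335 CPM in the gated cells, against 64.3, 61.7, 56.8 and 54.5 CPM in the comparison cells (2.56 ± 0.07, edgeR adjusted p = 1.2e-07). The gated values of both spanned a narrow range over the 4 libraries and none overlapped the comparison values. SNHG8, GAS5 and ZFAS1 rose by 2.24, 1.82 and 1.27. SNHG14, SNHG4 and SNHG16 had log2 fold changes of -0.40, -0.09 and 0.08 and did not pass. In the wider annotation, 248 tested genes have a snoRNA gene inside them, and 72 of these (29.0%) were higher, against 12.7% of all genes, while 48 (19.4%) were lower. C12orf57, which holds the U7 small nuclear RNA gene RNU7-1, had 570 to 675 CPM in the gated cells, against 130 to 161 CPM in the comparison cells.

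Of 12543 clone-named transcripts in the files, 1772 passed the filter on low counts, and 249 of these (14.1%) rose and 56 (3.16%) fell. The share that rose was near the 12.7% of all genes. Within barcode populations 54 of 199 rose and 12 fell, where 16.7% of all genes rose and 15.9% fell. Without library 2 the counts were 162 and 23, without library 3 they were 164 and 27, without library 1 the falls numbered 35, and without library 4 they numbered 23. AL355075.4, which overlaps RPPH1, the RNA of ribonuclease P, on the same strand, had 14.0, 13.3, 26.1 and 27.3 CPM in the gated cells, against 0.846, 0.690, 0.814 and 0.949 CPM in the comparison cells (log2 fold change 4.67 ± 0.20, edgeR adjusted p = 1.1e-06). AC087239.1, an intergenic transcript of 1 exon, had 12.0, 12.9, 7.41 and 14.7 CPM in the gated cells, against 1.20, 1.08, 1.12 and 0.893 CPM in the comparison cells (3.52 ± 0.22). AC083880.1, antisense within LUC7L2, rose by 2.60, AC015912.3 by 2.50, AC091271.1, which overlaps CLTC on the other strand, by 1.97, AL118516.1 by 1.77, AC093323.1 by 1.33, and AL627171.2, which overlaps the signal recognition particle RNA gene RN7SL2, by 1.27. Among clone-named transcripts with a mean of at least 5 CPM the largest fall was that of AL662797.1, antisense to TUBB, by 0.91, and below that level AC017002.1 and AC037198.2 fell further, by 2.11 and 2.25. Of 865 antisense, divergent and LINC transcripts tested, 123 rose (14.22%) and 23 fell (2.66%). Of 441 ZNF genes 66 rose (14.97%) and 32 fell (7.26%). In both lists the share that rose was near the 12.7% of all genes, and the share that fell was below the 14.0% of all genes. Counting by strand is not given in the sources used here, so reads of overlapping and antisense partners may be mixed.

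Replication histone transcripts normally end without a poly(A) tail. Of 59 tested, 34 rose and 4 fell. HIST1H3A had 8.36, 9.14, 10.7 and 12.7 CPM in the gated cells, against 2.59, 2.16, 2.03 and 2.26 CPM in the comparison cells, and HIST4H4 rose by 1.77 ± 0.25. The linker histones HIST1H1A and HIST1H1B fell by 0.80 and 0.64. Copies of these genes are near-identical, so single members are uncertain. Of 18 S phase genes 8 rose and 1 fell, with CCNE2, cyclin E2, at 33.9 to 44.9 CPM in the gated cells and 24.6 to 33.3 CPM in the comparison cells. Of 18 G2/M genes none rose and 3 fell (16.7%, near the 14.0% of all genes), among them the mitotic kinases AURKA by 0.52 and PLK1 by 0.28. Within populations 1 of the 18 rose and 8 fell, against 15.9% of all genes that fell there.

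Of 27 splicing factors and their kinases 17 rose and 2 fell: SRSF7 rose by 0.80 ± 0.05, CLK1, a kinase of SR proteins, by 0.84 ± 0.08, and HNRNPU and DDX17 fell by 0.24 and 0.37. Of 26 cleavage and Integrator subunits 2 rose and 8 fell, INTS6 by 0.84 and PCF11 by 0.47 upward, CLP1 and INTS5 falling by 0.70 and 0.62. Of 23 elongation regulators 5 rose and 7 fell. HEXIM1, the inhibitor of the elongation kinase P-TEFb, had 59.0, 60.9, 78.3 and 67.0 CPM in the gated cells, against 28.1, 30.5, 33.2 and 32.9 CPM in the comparison cells. POLR2A, the large subunit of RNA polymerase II, had 120, 142, 121 and 109 CPM in the gated cells, against 77.9, 97.1, 80.9 and 78.3 CPM in the comparison cells. Their log2 fold changes were 1.18 ± 0.07 and 0.65 ± 0.05 (edgeR adjusted p = 9.9e-06 and 6.5e-05). Of 18 exosome subunits and adaptors 3 rose (16.7%, near the 12.7% of all genes) and 1 fell, and of 10 nonsense-mediated decay factors 2 rose and 3 fell, UPF1 by 0.43. Of 83 cytosolic ribosomal protein genes and their paralogues 61 rose and 1 fell, with a median log2 fold change of 0.18. Their summed level was 187349 to 208526 CPM in the gated cells and 180475 to 195655 CPM in the comparison cells. Of 14 G-quadruplex helicases and binding proteins, 4 were higher (28.6%, against 12.7% of all genes), CNBP by 0.29 among them, and 3 were lower (21.4%, against 14.0%), the helicases PIF1, BRIP1 and BLM, by 0.64, 0.41 and 0.40. The list went both ways, with a median log2 fold change of 0.02.

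Among abundant noncoding transcripts, KCNQ1OT1 had 39.7 to 54.2 CPM in the gated cells, against 12.8 to 15.9 CPM in the comparison cells, and MIR22HG 29.5 to 38.2 CPM, against 10.0 to 12.0 CPM. FTX and LINC-PINT, long multi-exon transcripts, fell by 1.21 and 0.74, while NEAT1 had a log2 fold change of -0.03 that did not pass. Of 11 tested, 2 rose and 5 fell.

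**Figure D3:**
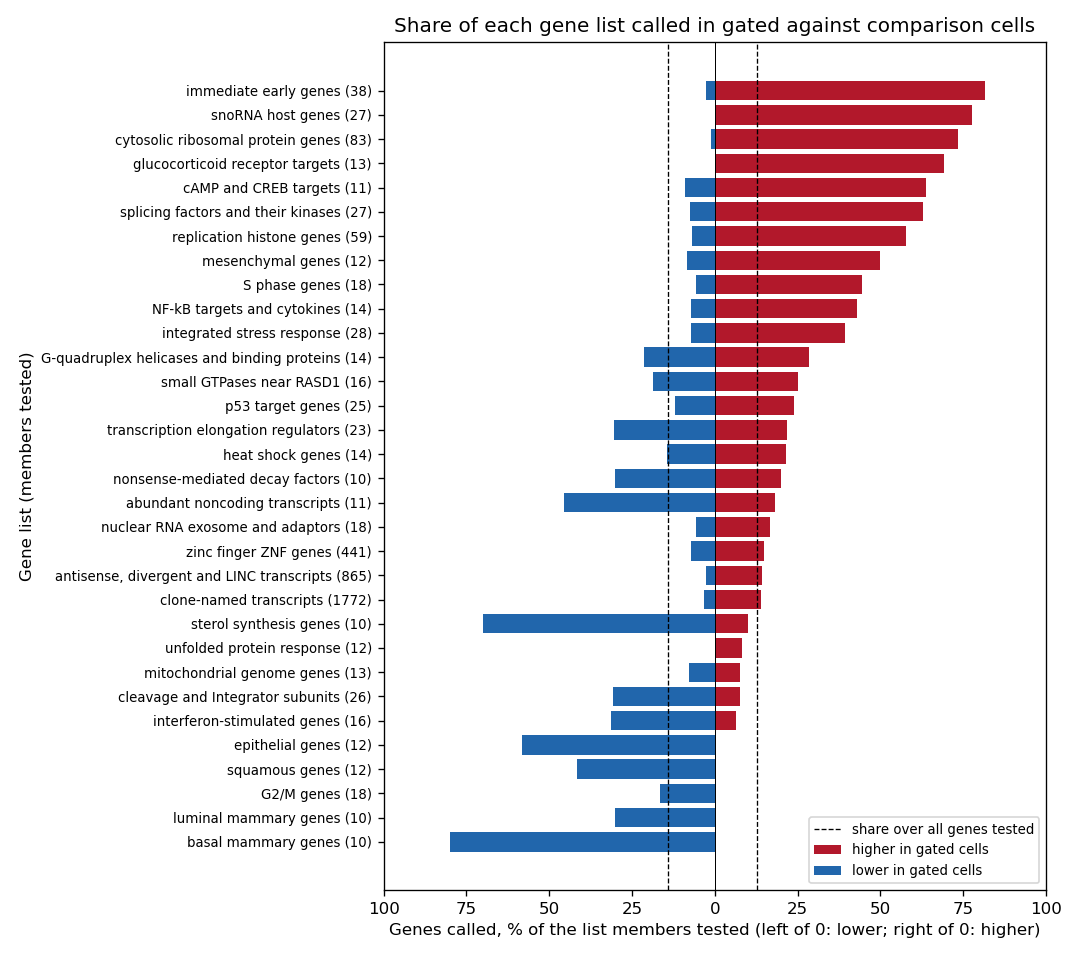
Share of each gene list (members tested in brackets; lists with at least 10) called lower (left of 0) and higher (right of 0) in gated against comparison cells, in %, with the share over all genes tested as dashed lines at 14.0 and 12.7%. Immediate early genes and snoRNA hosts extend farthest to the right, and basal mammary and sterol synthesis genes farthest to the left.

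YWHAQ was the largest fall by the rule, with 240, 187, 179 and 164 CPM in the gated cells, against 497, 514, 484 and 482 CPM in the comparison cells (log2 fold change -1.28 ± 0.07, edgeR adjusted p = 9.0e-06). It fell by 1.58 within barcode populations. PTPN14, a phosphatase that restrains YAP, had 17.3, 20.4, 12.6 and 11.9 CPM in the gated cells, against 30.9, 35.4, 29.7 and 28.8 CPM in the comparison cells, and fell by 0.94 and, within populations, by 1.01. Both were lower in the gated cells of every library, with no overlap. Sterol synthesis genes fell in 7 of 10 cases: HMGCS1 had 155 to 162 CPM in the gated cells and 281 to 317 CPM in the comparison cells, SQLE 152 to 178 and 261 to 310 CPM, and IDI1 rose by 0.23. Of 16 interferon-stimulated genes 5 fell, IFIT1 by 0.86 and IFIT3 by 0.61 among them, and IRF7 rose by 0.41. Over all cells IRF7 had a log2 fold change of 0.05 in libraries 1 and 2 and of 0.76 in libraries 3 and 4. By population it ran otherwise, with log2 ratios of gated to comparison CPM of 0.76, 0.87, 0.64 and 0.05 in SBO05, SBO08, SBO09 and SBO10.

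Genes of epithelial and basal identity were lower over all cells, but much less so within barcode populations. Of 12 epithelial genes 7 fell and none rose over all cells, while within populations 1 fell (CLDN4) and 1 rose (OVOL1). CDH1, E-cadherin, had 25.3, 23.9, 52.7 and 45.0 CPM in the gated cells, against 53.3, 63.2, 59.0 and 57.1 CPM in the comparison cells. EPCAM had 108, 98.9, 331 and 307 CPM in the gated cells, against 230, 234, 316 and 313 CPM in the comparison cells. The gated cells were thus lower in libraries 1 and 2, where SBO05 supplied most of those with a single barcode, and close to the comparison cells in libraries 3 and 4. Of 10 basal genes 8 fell over all cells and 3 within populations. KRT5, a basal keratin, had 256, 268, 571 and 592 CPM in the gated cells, against 678, 841, 901 and 993 CPM in the comparison cells, a fall of 1.01 over all cells and of 0.28 within populations. FST, S100A9, TP63, GRHL2 and CLDN1 fell by 1.20, 1.13, 1.12, 0.82 and 0.82 over all cells, and none of the 5 passed within populations, where their log2 fold changes were -0.10, -0.21, -0.47 and -0.13 for the first 4 and close to 0 for CLDN1. Of 10 luminal genes 3 fell and none rose over all cells, and 1 fell and 2 rose within populations. FGFBP1, LCN2, MIR205HG, TINCR and PPL passed in both, with falls of 0.94 to 1.25 over all cells and of 0.56 to 0.91 within populations.

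Of 12 mesenchymal genes 6 rose and 1 fell over all cells, with a median log2 fold change of 0.50. Within populations 2 of 8 rose and 1 fell, with a median of -0.07, against -0.02 over all genes tested there. VIM, vimentin, had 2415, 2551, 221 and 341 CPM in the gated cells, against 871, 924, 159 and 171 CPM in the comparison cells, a log2 fold change of 1.20 ± 0.14 over all cells and of 0.70 within populations. By population, VIM had 3549, 301, 188 and 274 CPM in the gated cells of SBO05, SBO08, SBO09 and SBO10, against 3294, 214, 116 and 97.1 CPM in the comparison cells. CDH2, N-cadherin, rose by 1.06 over all cells and had a log2 fold change of 0.19 within populations that did not pass. FN1 fell by 0.26 over all cells and by 0.38 within populations.

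Markers of other cell types were low or moved with the populations. In the gated sums the 7 endothelial markers added up to 0.784 to 1.56 CPM, against 1.54 to 1.86 CPM in the comparison sums, the 8 neuronal markers to 11.0 to 17.0 CPM, against 14.8 to 20.8 CPM, and the 8 leukocyte markers to 15 to 32.6 CPM, against 15.7 to 26.5 CPM. PTPRC, the pan-leukocyte marker CD45, was at 0 in 3 of 4 gated sums, and nearly all of the leukocyte sum was CD68, a lysosomal protein that is not limited to leukocytes. The 8 fibroblast markers added up to 96.4 to 306 CPM in the gated sums, against 80.4 to 159 CPM in the comparison sums, mostly THY1, and LUM was at 0 in 3 of 4 gated sums. Of the 12 squamous genes 5 fell, S100A7 most, to 0.908, 1.45, 4.81 and 0.941 CPM in the gated cells, against 16.9, 9.66, 34.6 and 25.3 CPM in the comparison cells. ARC, RASD1, AC239799.2 and Z93241.1, the markers that name these cells, were all high in them by construction, and the cells are called by the gate here and given no cell type name.

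**Figure D4:**
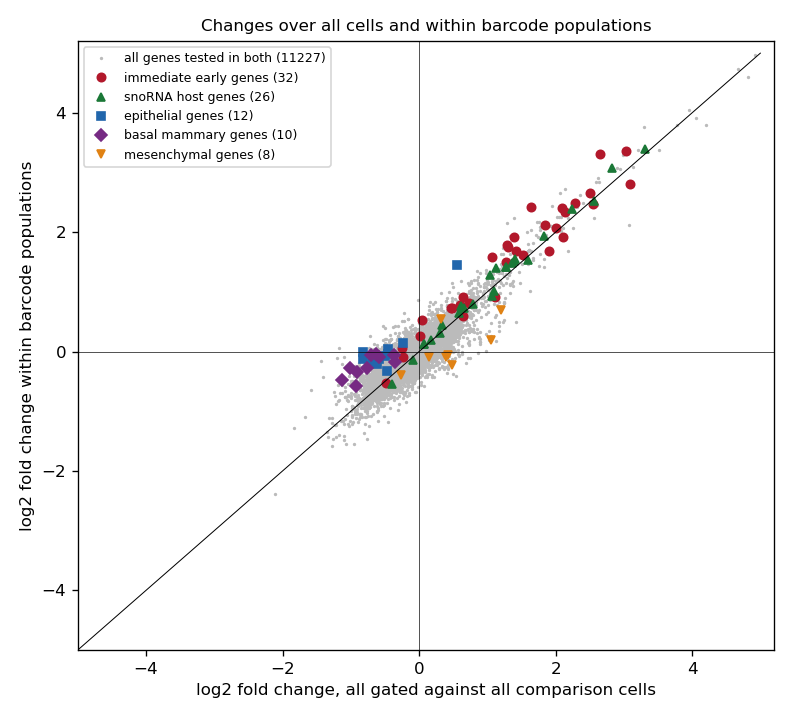
Log2 fold change of gated over comparison cells, over all cells (x axis) and within barcode populations (y axis), for the 11227 genes tested in both, which share cells, with 5 gene lists coloured; the diagonal marks equal values. Immediate early genes and snoRNA hosts lie near or above the diagonal, while most epithelial and basal genes that are below 0 over all cells lie closer to 0 within populations, the basal genes at a median of -0.22.

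Over all cells, the change between gated and comparison cells differed between the pools for 2242 of 16733 genes (13.4%, edgeR test of the interaction). Of these, 1419 (8.48%) were higher and 823 (4.92%) lower in libraries 3 and 4 relative to libraries 1 and 2. GADD45B rose by 4.01 in libraries 3 and 4 and by 4.12 in libraries 1 and 2 (edgeR adjusted p of the difference 0.11), and FOS by 3.08 and 2.98 (adjusted p = 0.42). EGR1 rose less in libraries 3 and 4, by 1.80, than in libraries 1 and 2, where it rose by 2.40 (edgeR adjusted p = 3.7e-07), and ZFP36, a factor that destabilises early transcripts, rose more, by 1.64 in libraries 3 and 4 and by 0.93 in libraries 1 and 2 (adjusted p = 7.6e-06). ZNF296 rose by 2.66 in libraries 3 and 4 and had a log2 fold change of 0.77 in libraries 1 and 2. The pools hold different barcode populations, so pool and population cannot be told apart. The 2 classes of a library also differ in their mix of populations, which the sums over all cells do not separate from changes within a population. KRT5 differed by 0.88 between the pools. Its log2 ratio of gated to comparison CPM was -0.35, -0.33, -0.35 and -0.56 in SBO05, SBO08, SBO09 and SBO10. For ZNF296 these ratios were 1.51, 2.77, 1.62 and 2.06.

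The genes that rose were shorter than those that fell. Over the genes matched in GENCODE 29 (98.6% of those that rose, 99.8% of those that fell), the median genomic span was 11.7 kb for genes that rose, 63.5 kb for genes that fell and 27.4 kb for all genes tested. Genes with a single exon made up 13.9% of rises, 3.81% of falls and 7.62% of all. Among protein-coding genes the median span was 14.2 kb for those that rose, 65.1 kb for those that fell and 32.1 kb for all. Genes are not independent replicates, so these are descriptions, with no test.

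Promoters of protein-coding genes, from 250 bases before to 50 after the start in RefSeq on GRCh38.p14, were searched on both strands for 4 runs of at least 3 G separated by 1 to 7 bases, a pattern that can fold into a G-quadruplex, and for TATAAA, TGACGTCA and TGACTCA with its reverse complement TGAGTCA. The G-run pattern was in 31.3% of 1415 promoters of genes that rose, 40.8% of 1822 of genes that fell and 34.2% of all 11196, while among the 269 of genes that rose by at least 1 on the log2 scale it was in 37.5%, so the direction relative to all promoters depended on the size of the rise. TATAAA, the core promoter box, was in 10.1% of promoters of genes that rose, 5.38% of those that fell, 6.09% of all and 19.7% of those with a rise of at least 1. TGACGTCA, the cAMP response element, was in 4.24, 2.74, 3.19 and 4.09% of these sets in the same order, and TGACTCA or TGAGTCA, the AP-1 site, in 3.11, 3.18, 3.34 and 5.2%. The promoters of RASD1 (chr17:17496346-17496645, minus strand) and GADD45B (chr19:2475877-2476176, plus strand) are shown since 1 names these cells and the other is the most abundant of the leading rises, with matches to the G-run pattern and to TATAAA in capitals.

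RASD1: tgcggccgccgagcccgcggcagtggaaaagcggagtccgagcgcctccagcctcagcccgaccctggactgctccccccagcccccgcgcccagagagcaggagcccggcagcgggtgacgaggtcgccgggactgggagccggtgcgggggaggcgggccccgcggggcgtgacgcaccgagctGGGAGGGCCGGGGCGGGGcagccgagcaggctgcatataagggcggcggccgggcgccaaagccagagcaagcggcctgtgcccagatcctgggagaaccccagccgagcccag
GADD45B: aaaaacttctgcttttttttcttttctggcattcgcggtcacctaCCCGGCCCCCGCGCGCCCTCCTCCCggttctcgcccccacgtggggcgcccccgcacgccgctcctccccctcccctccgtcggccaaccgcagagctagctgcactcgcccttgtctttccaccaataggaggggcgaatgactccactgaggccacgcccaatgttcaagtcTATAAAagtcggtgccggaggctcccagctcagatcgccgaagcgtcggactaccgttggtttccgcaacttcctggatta

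RASD1 holds the G-run pattern on the strand shown. GADD45B holds it on the opposite strand, where it appears as runs of C, and holds TATAAA on the strand shown, with no overlap between the matches. A match is a description of the letters and not of binding or folding.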

How the data were processed

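UMI counts per gene and per barcode oligonucleotide in each cell, as deposited by the authors in 1 raw count matrix per mRNA library with 36601 genes, were used as given. The authors' matrices were written by Cell Ranger 6.0.2, per the file headers, and bcl2fastq 2.20.0.422, Seurat 4.1.0 and the build hg38 are named per the submitters' processing notes. The sources used here do not give the annotation release, any filter before deposit or the use of strand. Each UMI counts 1 captured molecule whatever its PCR copies, and a 5' kit reads transcript starts, so isoforms that share a start are counted together.

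For each library, HTODemux (Seurat 5.3.0, centred log ratios, quantile 0.99) called the barcodes of every cell, among those that led in at least 1% of cells. Cells with several barcodes were kept, and no other doublet caller was run. UMIs were summed per library over gated and over comparison cells, which gave 8 sums. They were tested in edgeR 4.0.16 (filterByExpr, TMM factors, quasi-likelihood test) with a block per library, since both sums of a library come from 1 preparation, and Benjamini-Hochberg adjustment over all genes tested, without the 9 gate genes. The common biological coefficient of variation was 8.94%. Each SE is the absolute log2 fold change divided by the square root of the quasi-likelihood F statistic, not a standard error over library differences. The scripts were tested on simulated counts. CPM are UMIs per 1000000 of a sum, with no further factor. The fit within barcode populations used the populations with at least 20 gated and 20 comparison cells in a library, with library and population together as the block. Its 8 pairs share libraries. In that fit the spread comes from loads and populations, not from cultures.

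The gate, the gene lists and the comparison were chosen with earlier results of these data known, so no count for a list is independent evidence. Genes named by rule were the 10 largest rises and the 10 largest falls with a mean of at least 20 CPM, the same direction in all 4 libraries and an adjusted p under 0.05, the 8 largest such rises and the largest such fall among clone-named transcripts with at least 5 CPM, and from each list the 2 called members with the largest rise and the 2 with the largest fall, with at least 5 CPM. Some genes that the rule names are not reported here. The alternatives tried were gates of at least 4 and 6 genes, comparison cells with none of the 9 genes, cells thinned to 10000 UMIs, at most 10% mitochondrial UMIs, single barcode populations, cells without a single barcode, no filter on low counts, RLE factors, library totals, DESeq2 1.42.0, no block, each pool alone, and each library left out. Gene positions and transcripts came from GENCODE 29 and promoters from RefSeq. The 4 libraries of barcode oligonucleotides have no matrix apart from those of the mRNA libraries.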

Additional observations from a re-analysis of the deposited data

Results flagged for a closer look

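In 5 of the genes named by rule, 1 library stood apart from the other 3 in its log2 difference between gated and comparison cells by Dixon's test. Chance flags about 1 in 20 groups of 4. The values are 2.23 for DDIT3 in library 1, where the others were higher, 0.294 for NRAS in library 1 and 0.201 for IDI1 in library 3, where the others were lower, -2.17 for TP63 in library 2 and -1.27 for ELL in library 4, where the falls were larger than elsewhere.

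In 44 of them the change between gated and comparison cells differed between the pools by edgeR's interaction test. Each value is the log2 fold change in libraries 3 and 4 minus that in libraries 1 and 2. The pools hold different barcode populations, with which these differences cannot be told apart. All of these values are over all cells, so the mix of populations in the 2 classes enters them too.

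Genes that fell less, or not at all, in libraries 3 and 4 had positive differences: S100A8 2.30, FST 1.60, S100A9 1.57, CLDN1 1.28, LCN2 0.97, KRT5 0.88, IGFL2-AS1 0.88, SLPI 0.77, GRHL2 0.77, TINCR 0.75, FGFBP1 0.73, PPL 0.71, MIR205HG 0.66, HSPA1A 0.44, HSPA1B 0.21 and FN1 0.21.

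Genes that rose more there were ZNF296 with 1.88, LINC00052 with 1.80, TNF with 1.54, HIST4H4 with 1.16, CXCL2 with 1.06, KLF2 with 0.89, AL355075.4 with 0.84, ID2 with 0.78, RASL11A with 0.71, IRF7 with 0.69, AC015912.3 with 0.60, DUSP1 with 0.59, NFKBIZ with 0.48, BTG2 with 0.46, AC093323.1 with 0.40, SNHG12 with 0.39, ATF3 with 0.36, CNBP with 0.29, SNHG1 with 0.28 and SRSF7 with 0.20.

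The difference was negative for VIM at -0.67, THY1 at -0.50, PCF11 at -0.40, SERPINH1 at -0.25 and DNAJB1 at -0.20, which rose less over all cells of libraries 3 and 4. It was also negative for PIF1 at -0.90, AURKA at -0.45 and PLK1 at -0.40, which fell more there. By population, the log2 ratio of gated to comparison CPM of VIM was 0.11 in SBO05 and 0.49, 0.69 and 1.49 in SBO08, SBO09 and SBO10. In the same order THY1 had -0.02, 0.16, -0.12 and 0.41, and SERPINH1 -0.05, 0.09, 0.13 and 0.07. PCF11 and DNAJB1 rose less, and PIF1, AURKA and PLK1 fell more, in each of SBO08, SBO09 and SBO10 than in SBO05.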

How the results depend on the processing

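Library as a replicate block pairs the gated and comparison cells of 1 preparation. With no replicate block 1359 genes were higher, against 2130 with it, and 1700 were lower, against 2341. Cells thinned to 10000 UMIs before gating gave 1129 higher and 1152 lower, with 98 higher and 7 lower among clone-named transcripts. Cells with no single barcode gave 1265 and 1125, with 88 and 8 clone-named, and within barcode populations 54 clone-named transcripts were higher and 12 lower. These alternatives use fewer cells or fewer genes. Library totals gave 1415 higher and 3689 lower (85 clone-named), DESeq2 gave 37 clone-named falls and a gate of 6 genes gave 34. With no filter on low counts the median log2 fold change of all genes was -0.22. Leaving out each library in turn gave 1355 to 1530 higher, 1346 to 1676 lower, 162 to 178 clone-named higher and 23 to 35 clone-named lower. The share of gated cells in libraries 1 to 4 was 4.48, 5.02, 6.05 and 5.74% with at least 4 genes, 2.03, 2.65, 3.77 and 3.47% with at least 6, and 1.42, 1.66, 2.67 and 2.29% after thinning.

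Of 2121 values of the 118 genes named by rule under these alternatives, 1928 kept their direction and their side of the threshold, 192 kept the direction and did not pass, and 1 reversed. That was MT-ND1, which fell by 0.15 and had a log2 fold change of 0.015 in thinned cells, where the cause was not tested. Genes changed by under 0.3 on the log2 scale and genes of a few CPM, such as EXOSC6, AARS and CD68, lost their call most often. The gated sums are the shallower side of each comparison and set the precision for low genes.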

Other observations

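A few further RNAs made by or beside small RNA genes were measured but belong to no list. TERC, the RNA of telomerase, had 1.45, 2.29, 0.780 and 1.57 CPM in the gated cells of libraries 1 to 4, against 0.242, 0.216, 0.146 and 0.142 CPM in the comparison cells, a log2 fold change of 3.07 ± 0.35 (edgeR adjusted p = 5.6e-04). It was chosen after its values were seen, and it rests on few UMIs. Of genes with a small nuclear RNA gene inside them, 35 of 409 tested were higher (8.56%), against 12.7% of all genes, and 97 were lower (23.7%, against 14.0%). Of 865 genes that contain a miRNA, 104 were higher (12.0%, near the 12.7% of all genes) and 198 lower (22.9%, against 14.0%).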
